A study of Rattus norvegicus with 11 samples.

Results

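Protein kinase A (PKA), protein kinase C (PKC), AMP-activated protein kinase (AMPK) and the mitogen-activated protein (MAP) kinase cascades were examined in rat hippocampus on 2 diets. Members were all probe sets whose only platform gene symbol begins with Prka, Prkc, Mapk, Map2k, Map3k or Dusp. The rule used names and no measured value, and it found 84 of the 15923 probe sets of the array, for 66 of 10412 named genes. The prefixes also bring in the AMPK subunits, Prkcsh, which encodes a subunit of the endoplasmic reticulum enzyme glucosidase II, and Mapkap1, which encodes a part of the kinase complex mTORC2.

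Total RNA of hippocampus was hybridised to 11 arrays, 6 for a control diet and 5 for a ketogenic diet, described in the labels as one that prevents seizures. A ketogenic diet is high in fat and low in carbohydrate. The sources used here give no strain, age, sex, diet composition or time on diet. Nothing in the labels says whether arrays stand for separate animals, and the p-values cover only the spread among these arrays. In whole tissue, fewer cells of a type and less RNA per cell cannot be told apart.

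PKA is a tetramer of catalytic subunits held inactive by regulatory subunits until cyclic AMP binds these, and in hippocampus it is known for its part in long-lasting synaptic potentiation. PKC isoforms fall into a conventional class, which calcium and diacylglycerol activate, a class that needs diacylglycerol only, and an atypical class that needs neither. In MAP kinase cascades a MAP3 kinase phosphorylates a MAP2 kinase, which phosphorylates a MAP kinase (ERK, JNK or p38), and dual-specificity phosphatases of the Dusp family remove those phosphates. AMPK, a heterotrimer of alpha, beta and gamma subunits, is activated when cellular energy is low.

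A platform probe set has no sequence in the tables used here, so the upstream sequences of 3 called genes are shown. They are the 300 bases from 250 before to 50 after the annotated start, from RefSeq on the assembly GRCr8, written 5′ to 3′ on the gene's strand. Mapk14 and Prkci moved in opposite directions, and Dusp6 had the largest fold change of the called members, a choice made after their values were seen. Capitals mark the GC box GGGCGG or its reverse complement, a motif common in promoters of widely expressed genes.
Mapk14, chr20:6751109-6751408, plus strand: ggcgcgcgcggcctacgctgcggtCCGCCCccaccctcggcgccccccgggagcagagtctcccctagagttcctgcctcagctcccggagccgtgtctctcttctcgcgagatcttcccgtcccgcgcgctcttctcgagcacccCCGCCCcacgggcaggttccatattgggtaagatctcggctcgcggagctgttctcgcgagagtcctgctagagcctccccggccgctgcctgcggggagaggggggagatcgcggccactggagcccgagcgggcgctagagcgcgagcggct
Prkci, chr2:114310735-114311034, minus strand: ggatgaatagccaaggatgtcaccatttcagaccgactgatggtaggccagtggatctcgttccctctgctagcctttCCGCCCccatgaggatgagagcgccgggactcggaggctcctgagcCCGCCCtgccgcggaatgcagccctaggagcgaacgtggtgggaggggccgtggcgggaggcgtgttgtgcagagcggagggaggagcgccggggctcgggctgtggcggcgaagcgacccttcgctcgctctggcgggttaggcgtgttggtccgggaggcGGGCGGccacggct
Dusp6, chr7:35979354-35979653, plus strand: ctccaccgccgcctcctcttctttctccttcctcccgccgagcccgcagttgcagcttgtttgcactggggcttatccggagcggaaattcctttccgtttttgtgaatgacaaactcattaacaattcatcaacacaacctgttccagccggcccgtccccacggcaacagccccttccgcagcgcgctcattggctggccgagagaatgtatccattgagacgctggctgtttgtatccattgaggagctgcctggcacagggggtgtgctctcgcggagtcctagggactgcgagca
The Mapk14 window held 2 GC boxes, the Prkci window 3 and the Dusp6 window 0. Upstream windows were found for 57 of the 66 member genes, in 61 entries, and 78.7% of these held a GC box on either strand, against 33.1% of all 33469 windows of that length. Base composition differed too, with a GC content of 66.9% in member windows and 52.7% over all. The full cyclic AMP response element TGACGTCA was found in 3 member windows, those of Dusp1 and Dusp11 among them, or 4.92% of member entries against 1.83% of all, and its core TGACG, which the full element contains, in 34.4% against 21.2%. Neither called gene direction held the full element, with 0 of 7 entries of genes called higher and 0 of 5 of genes called lower. These matches describe letters in a window and not binding.

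Signals are log2 intensities after quantile normalization, and differences are ketogenic minus control. Of the 84 member probe sets, 70 (for 57 genes) had a mean over all arrays above the lowest 25% of the array and were tested. None of the 70 had a group mean below that level. A probe set is described as called, and as having risen or fallen, where the limma p adjusted over all 11899 tested probe sets was below 0.05. By this rule 7 members rose and 8 fell, for 14 genes, or 21.4% of the tested members, against 16.5% of all tested probe sets. The shares by direction over all probe sets were 8.62% higher and 7.87% lower. The groups did not overlap in 6 of the 70 tested members, or 8.57%, against 6.99% of all. The median difference was -0.03 over the tested members and -0.004 over all tested probe sets, and the median size of a difference was 0.17 in both. No called member reached a 2-fold change, the folds lying between 1.19 and 1.97.

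Prkcb, Mapk14, Mapkap1, Prkag2, Map2k2, Map2k5 and Dusp6 were higher on the ketogenic diet. Prkci, Prkch, Prkcq, Mapk8ip1, Prkab1, Dusp3 and Dusp12 were lower. None of the 11 PKA probe sets was called. The plot of called probe sets shows each array.

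**Figure D1:**
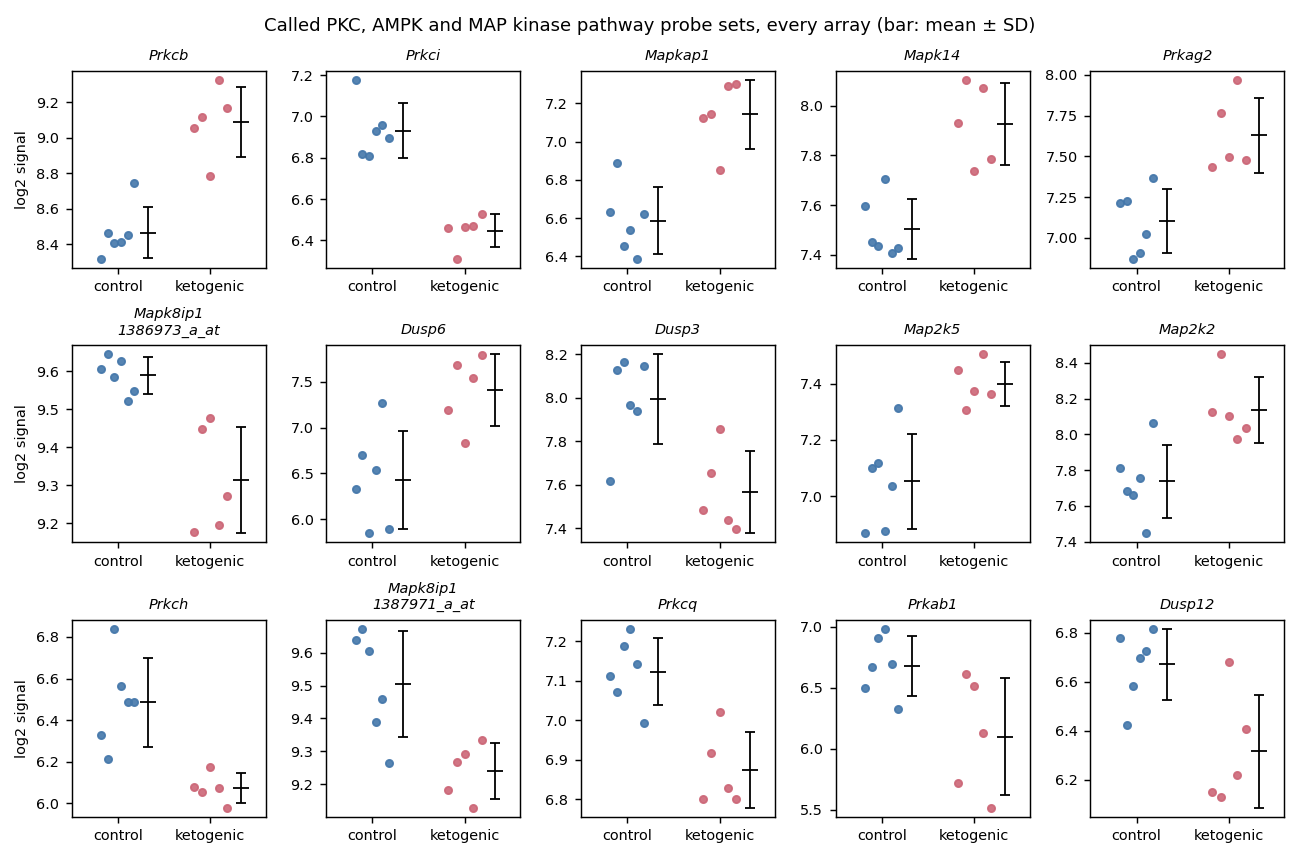
Log2 signal of the 15 called probe sets on every array, with 6 control arrays (blue) and 5 ketogenic arrays (red) in each panel and black bars for the mean ± SD, the vertical axis starting near the lowest value. The groups are separate for Prkcb, Prkci, Mapk14, Prkag2, Prkch and the first Mapk8ip1 probe set and overlap in the other 9 panels.

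The arrays also differed as wholes. Ketogenic replicate 3, the only array whose title carries an added letter b, had a score of -2.82 on principal component 1, where the remaining ketogenic arrays scored 18.6 to 25.7 and the controls -17.3 to -10.6. The log2 ratio of 3 prime to 5 prime control probe sets exceeded that of the controls in the ketogenic group by 0.20 for Gapdh (exact permutation p = 0.00649, adjusted over 4 measures 0.00866) and by 0.19 for actin (exact permutation p = 0.00216, the smallest possible, adjusted 0.00433). Deposited log2 intensities had a median lower by 0.14 in the ketogenic group, with control arrays at 6.48 to 6.56 and ketogenic arrays at 6.32 to 6.46 (exact permutation p = 0.00216, adjusted 0.00433). For the mean of the spike-in controls, the fourth measure, the difference was -0.01 (exact permutation p = 0.729). With both ratios as covariates 0 of the 70 members and 6 of all probe sets were called. At an unadjusted p under 0.05 without covariates, 24 members (34.3%) and 3967 of all tested probe sets (33.3%) passed. The member count was 25 (35.7%) without ketogenic replicate 3 and 8 (11.4%) without ketogenic replicate 4. In the same fits 26.6% and 6.70% of all tested probe sets were called, against 16.5% with all arrays. Without control replicate 3 the shares were 14.3% of members and 10.5% of all, and without ketogenic replicate 2 they were 14.3% and 7.07%. With 1 array left out, 6 to 12 members were higher and 2 to 13 lower. The lower count of 8 became 3 without control replicate 3, 5 without control replicate 4 or 5, 4 without ketogenic replicate 1, 2 or 5, 2 without ketogenic replicate 4 and 13 without ketogenic replicate 3. Of the 15 called probe sets, 7 were called in all 11 fits with 1 array left out, 5 of them higher (Prkcb, Mapkap1, Mapk14, Prkag2 and Dusp6) and 2 lower (Prkci and the first Mapk8ip1 probe set).

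Hippocampal markers were present, with Prox1 at a mean log2 signal of 8.21 on control and 8.07 on ketogenic arrays and Wfs1 at 9.72 and 9.67. Of 9 measured excitatory neuron markers 2 rose, Camk2a and Grik4, while the median difference over the 9 was -0.01. The summed linear signal of the 9 was 5191 to 6212 on control and 6176 to 6929 on ketogenic arrays. That sum includes Camk2a, whose mean log2 signal was 9.31 on control and 10.65 on ketogenic arrays. Of 9 choroid plexus markers 4 fell, with a sum of 1039 to 2899 and 707 to 1268. This sum takes in Ttr, which was not called. Its log2 signal was 10.63 on control array 1 and 6.35 to 7.92 on the other controls. All 4 measured red cell markers fell, with a sum of 1168 to 1623 and 295 to 385. Of 10 vascular and meningeal markers 2 fell (sums 1230 to 1676 and 998 to 1293), as did 2 of 8 for oligodendrocytes (9674 to 11759 and 8864 to 11188), 2 of 9 for astrocytes (8855 to 9576 and 8233 to 9553) and 2 of 6 for microglia (813 to 961 and 727 to 894). Of 7 thalamic and 6 striatal markers 1 fell in either list, with sums of 1264 to 1414 and 1294 to 1379 for the first and of 816 to 1067 and 775 to 1098 for the second. Of 9 interneuron markers 0 were called, with sums of 3653 to 4240 and 3667 to 4545. A marker counted as measured only if it passed the filter on dim probe sets, which by itself keeps out any at the floor in both groups. The part of these markers in the differences of the kinase genes was not tested.

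The PKA genes showed no called change. Prkaca, a catalytic subunit, was at 8.93 ± 0.17 (SD, n = 6) on control arrays and 8.96 ± 0.06 (SD, n = 5) on ketogenic arrays, and its difference was 0.02 (95% interval -0.14 to 0.19). For Prkacb, the other catalytic subunit, the brighter probe set differed by -0.22 (95% interval -0.39 to -0.05), with adjusted p = 0.0712 in limma. It was called only when control replicate 1, at 9.81 below the other controls, was left out (-0.29, adjusted p = 0.0101). The dimmer Prkacb probe set differed by -0.08 (95% interval -0.33 to 0.16).

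The regulatory subunits, which bind and inhibit the catalytic ones, had 8 tested probe sets. Prkar1a, represented by its brightest of 3, was at 10.55 ± 0.11 (SD, n = 6) on control arrays and 10.63 ± 0.11 (SD, n = 5) on ketogenic arrays and differed by 0.09 (95% interval -0.05 to 0.22). Centred on the 75th percentile, this Prkar1a probe set was called higher (0.25, adjusted p = 0.0401), as was 1 of the other 2 (0.18, adjusted p = 0.0350). Prkar1b, the neuronal type I subunit, differed by 0.04 (95% interval -0.09 to 0.16), and Prkar2b, the type II subunit enriched in brain, by -0.04 (95% interval -0.21 to 0.13). Prkar2a differed by -0.17 (95% interval -0.40 to 0.05) at its brightest probe set and by -0.36 and -0.42 at the others, with ketogenic arrays from 4.42 to 5.86 and from 4.85 to 6.07. The 3 Prkar2a probe sets shared the negative sign and 0 of them were called, although 1 was called lower on the values as deposited (-0.60, adjusted p = 0.0474). The intervals of Prkaca, Prkar1b and Prkar2b all lay between -0.21 and 0.19.

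AMPK subunits moved in both directions. Prkag2 encodes a gamma subunit, which binds adenine nucleotides. Its signals were 7.22, 7.23, 6.87, 6.90, 7.03 and 7.36 on control arrays 1 to 6 and 7.43, 7.76, 7.49, 7.97 and 7.48 on ketogenic arrays 1 to 5. Every ketogenic array lay above every control array. Prkag2 rose by 0.53 on the log2 scale (SE 0.12, limma adjusted p = 0.0116), which is 1.44-fold. Prkab1, a beta subunit that joins the alpha and gamma subunits, had controls from 6.32 to 6.98 with a median of 6.68 and ketogenic arrays from 5.52 to 6.61 with a median of 6.13. Ketogenic arrays 1 and 5 were lowest, and arrays 2 and 3 lay among the controls. Prkab1 fell by 0.58 on the log2 scale (SE 0.19, limma adjusted p = 0.0488), a call kept by 3 of the 11 fits that leave out 1 array. It was lost without control replicates 1 to 5 and ketogenic replicates 1, 4 and 5 (differences -0.70 to -0.43 over the 11 fits, adjusted p up to 0.115). With the Gapdh and actin ratios as covariates Prkab1 was at -0.20 (adjusted p = 0.969). The remaining 3 tested AMPK probe sets, for Prkaa1, Prkab2 and Prkag1, differed by -0.12 to 0.13. Prkaa2, the catalytic alpha subunit prominent in muscle and neurons, was too dim to be tested.

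Among the conventional PKC isoforms, Prkcb had the smallest p of all members. PKC beta is abundant in hippocampal neurons and occurs as splice forms. Signals of its probe set 1368240_a_at were 8.32, 8.46, 8.41, 8.41, 8.45 and 8.74 on control arrays 1 to 6 and 9.05, 9.12, 8.78, 9.33 and 9.17 on ketogenic arrays 1 to 5. No ketogenic array overlapped the controls, although ketogenic array 3, at 8.78, came close to control array 6, at 8.74. This probe set rose by 0.62 on the log2 scale (SE 0.09, limma adjusted p = 0.00227), 1.54-fold. It was called in all 11 fits with 1 array left out and was 0.42 (adjusted p = 0.706) with the Gapdh and actin ratios as covariates.

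The second Prkcb probe set, 1370585_a_at, was at 10.39 ± 0.12 (SD, n = 6) on control arrays and 10.54 ± 0.13 (SD, n = 5) on ketogenic arrays and had a difference of 0.15 (95% interval 0.01 to 0.30), adjusted p = 0.138 in limma. It was called on deposited values without quantile normalization (0.27), centred on the 75th percentile (0.30), with array weights (0.19), with the replicate number as a block (0.19) and without ketogenic replicate 3 (0.20). Both Prkcb probe sets carry the suffix of probe sets shared by transcripts of 1 gene, and the sources used here do not say which splice form each measures. Prkca, the other conventional isoform measured, had a difference of 0.13 (95% interval -0.10 to 0.35).

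PKC isoforms of the calcium-independent and atypical classes were lower where they were called. Prkci encodes PKC iota, an atypical isoform known from cell polarity complexes. Signals of its probe set 1371203_at were 7.18, 6.82, 6.81, 6.93, 6.96 and 6.90 on control arrays 1 to 6 and 6.46, 6.31, 6.46, 6.47 and 6.53 on ketogenic arrays 1 to 5. All ketogenic arrays, array 3 included, were below all controls. Prkci fell by 0.48 on the log2 scale (SE 0.09, limma adjusted p = 0.00514) at this probe set, 1.40-fold, and was at -0.48 (adjusted p = 0.666) with the covariates. The brightest of the 3 Prkci probe sets had a difference of -0.17 (95% interval -0.36 to 0.03) and the third one of -0.06, so the call rests on 1 of 3. Prkcz, the other atypical isoform, differed by -0.08 (95% interval -0.32 to 0.15).

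Prkch encodes PKC eta. Its signals were 6.33, 6.21, 6.84, 6.56, 6.49 and 6.49 on control arrays 1 to 6 and 6.08, 6.06, 6.18, 6.08 and 5.98 on ketogenic arrays 1 to 5. The ketogenic arrays lay within a narrow range just below the lowest control. Prkch fell by 0.41 on the log2 scale (SE 0.11, limma adjusted p = 0.0256), and the call was lost without control replicate 3 (-0.34, adjusted p = 0.0517) and without ketogenic replicates 2, 4 and 5, the largest adjusted p being 0.058. Prkcq, which encodes PKC theta and is best known from T cells, had signals of 7.11, 7.07, 7.19, 7.23, 7.14 and 6.99 on control arrays 1 to 6 and 6.80, 6.92, 7.02, 6.83 and 6.80 on ketogenic arrays 1 to 5. Ketogenic array 3, at 7.02, lay above the lowest control. Prkcq fell by 0.25 on the log2 scale (SE 0.08, limma adjusted p = 0.0435), and was called in 2 of 11 fits with 1 array left out, those without control replicate 6 and without ketogenic replicate 3 (differences -0.29 to -0.23). With the covariates Prkcq was at -0.12 (adjusted p = 0.943). Prkcd had a difference of -0.30 (95% interval -0.58 to -0.03), adjusted p = 0.116 in limma, and was called lower on the values as deposited (-0.41), centred on the 75th percentile (-0.38) and without control replicate 2 (-0.39). Prkce, an isoform abundant in brain, differed by 0.12 (95% interval -0.09 to 0.32).

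**Figure D2:**
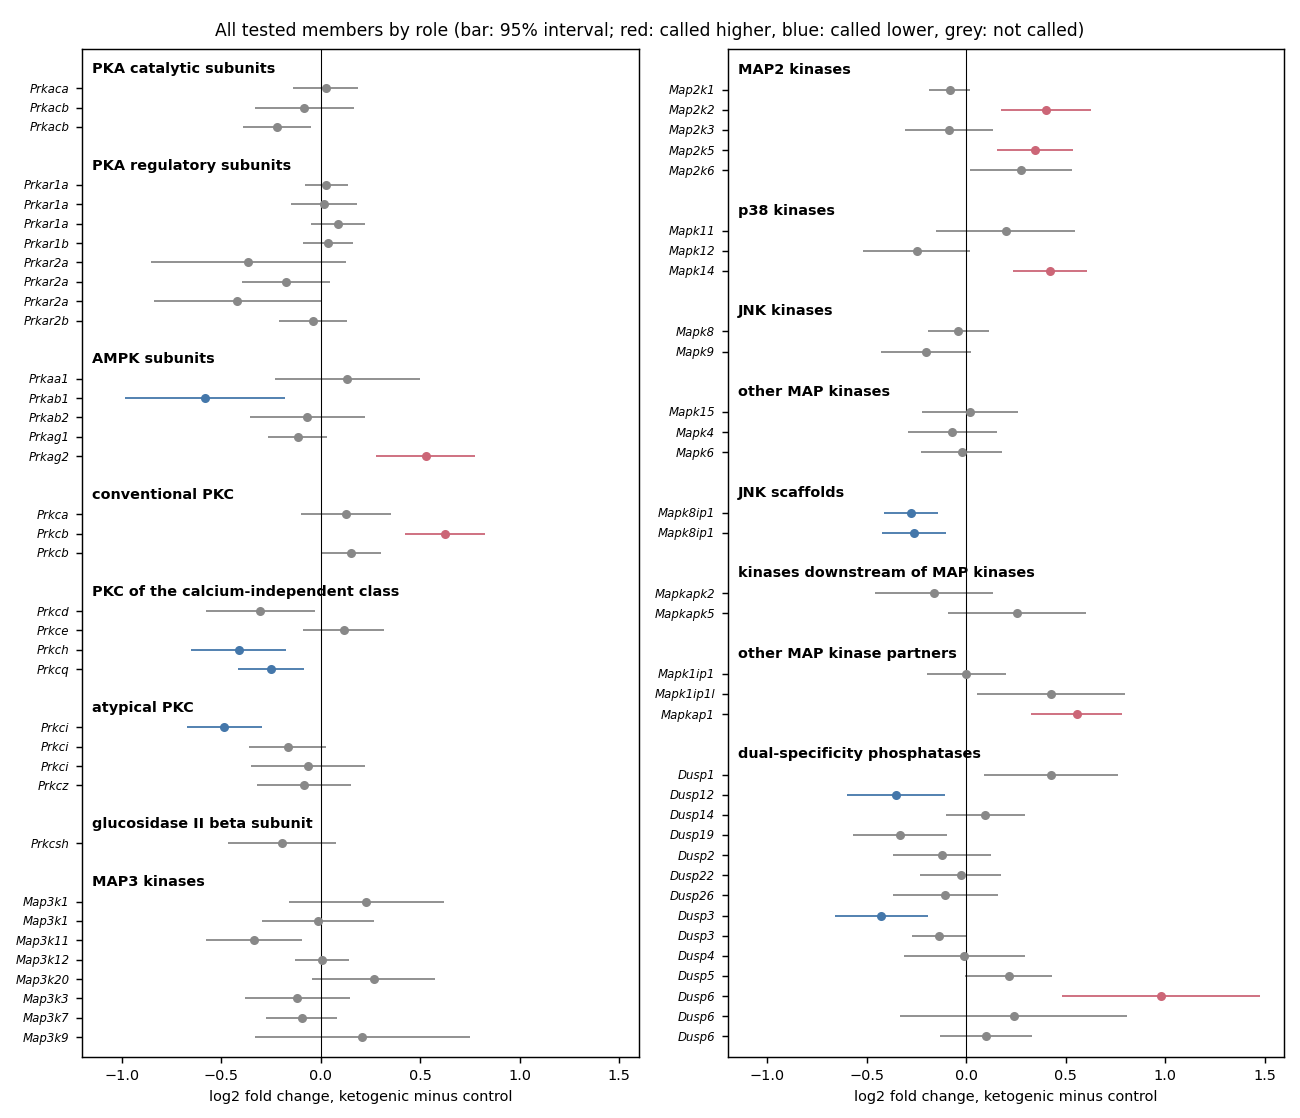
Log2 fold change (ketogenic minus control) of the 70 tested member probe sets in groups by role, with 95% intervals, red for called higher, blue for called lower and grey for not called. All PKA intervals are grey, and the called PKC probe sets lie above 0 for Prkcb and below 0 for Prkci, Prkch and Prkcq.

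At the top of the MAP kinase cascades, 0 of 8 tested MAP3 kinase probe sets were called, with differences from -0.34 to 0.27. Among the 5 MAP2 kinases 2 rose and 3 were not called, at -0.09 to 0.28. Map2k2 encodes MEK2, which activates ERK kinases. Its signals were 7.81, 7.68, 7.66, 7.76, 7.45 and 8.06 on control arrays 1 to 6 and 8.13, 8.45, 8.10, 7.98 and 8.03 on ketogenic arrays 1 to 5. Control array 6, at 8.06, lay among the ketogenic arrays. Map2k2 rose by 0.40 on the log2 scale (SE 0.11, limma adjusted p = 0.0237), was at 0.32, adjusted p = 0.0645 without ketogenic replicate 2, and at -0.01 (adjusted p = 0.997) with the 3 prime to 5 prime covariates.

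Map2k5 encodes MEK5, the activator of ERK5. Signals of Map2k5 were 6.87, 7.10, 7.12, 6.88, 7.04 and 7.31 on control arrays 1 to 6 and 7.45, 7.31, 7.37, 7.50 and 7.36 on ketogenic arrays 1 to 5. Ketogenic arrays clustered tightly, and only control array 6 reached their range. Map2k5 rose by 0.35 on the log2 scale (SE 0.09, limma adjusted p = 0.0212), and was at 0.32, adjusted p = 0.0602 without ketogenic replicate 4. Mapk7, the gene of ERK5, was too dim to be tested. Map2k1, which encodes MEK1, was among those not called.

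Of the MAP kinases proper, 1 of 8 tested probe sets was called. Mapk14 encodes p38 alpha, a stress-activated kinase. Its signals were 7.60, 7.45, 7.44, 7.71, 7.41 and 7.43 on control arrays 1 to 6 and 7.93, 8.10, 7.74, 8.07 and 7.79 on ketogenic arrays 1 to 5. The lowest ketogenic array, array 3, was just above the highest control. Mapk14 rose by 0.42 on the log2 scale (SE 0.09, limma adjusted p = 0.00852), 1.34-fold, and held in all 11 fits with 1 array left out, at 0.38 to 0.47. With the covariates it was at 0.29 (adjusted p = 0.856).

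The other p38 genes did not pass the test. Mapk11, which encodes p38 beta, differed by 0.20 (95% interval -0.15 to 0.55) and Mapk12, which encodes p38 gamma, by -0.25 (95% interval -0.52 to 0.02), and Mapk12 was called lower on the values as deposited (-0.42, adjusted p = 0.0429). Whether Mapk14 and Mapk12 differ in response was not tested. The JNK gene Mapk8 differed by -0.04 (95% interval -0.19 to 0.11) and Mapk9 by -0.20 (95% interval -0.43 to 0.03). Mapk4 and Mapk6, which encode the atypical kinases ERK4 and ERK3, differed by -0.07 (95% interval -0.29 to 0.15) and -0.02 (95% interval -0.23 to 0.18), and Mapk15 by 0.02 (95% interval -0.22 to 0.26).

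Mapk8ip1 encodes JIP1, a scaffold that assembles the JNK cascade and links cargo to kinesin in axons. It was the 1 gene with 2 tested probe sets that were both called. Signals of the probe set 1386973_a_at were 9.61, 9.65, 9.59, 9.63, 9.52 and 9.55 on control arrays 1 to 6 and 9.18, 9.45, 9.48, 9.20 and 9.27 on ketogenic arrays 1 to 5. Controls spread over little more than 0.1, and ketogenic arrays 2 and 3 came nearest to them. This Mapk8ip1 probe set fell by 0.28 on the log2 scale (SE 0.06, limma adjusted p = 0.0134), 1.21-fold.

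Signals of the other Mapk8ip1 probe set, 1387971_a_at, were 9.64, 9.67, 9.61, 9.39, 9.46 and 9.27 on control arrays 1 to 6 and 9.18, 9.27, 9.29, 9.13 and 9.34 on ketogenic arrays 1 to 5. Control array 6 lay among the ketogenic arrays. This probe set fell by 0.26 on the log2 scale (SE 0.08, limma adjusted p = 0.0313), and its call was lost without control replicates 1, 2 and 3 and ketogenic replicates 1, 2 and 4 (differences -0.31 to -0.23 over the 11 fits). With the covariates it was at -0.16 (adjusted p = 0.922). The scaling mattered for both, since on the values as deposited they were at -0.15, adjusted p = 0.109 and -0.15, adjusted p = 0.138.

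Mapkap1 encodes SIN1, a part of mTORC2, which phosphorylates PKC and AKT. Its signals were 6.63, 6.89, 6.45, 6.54, 6.39 and 6.62 on control arrays 1 to 6 and 7.13, 7.15, 6.85, 7.29 and 7.30 on ketogenic arrays 1 to 5. Ketogenic array 3, at 6.85, fell just below control array 2 at 6.89, and the other arrays were separate. Mapkap1 rose by 0.56 on the log2 scale (SE 0.11, limma adjusted p = 0.00625), 1.47-fold, and held in all 11 fits with 1 array left out. The other 2 tested probe sets of MAP kinase partners differed by 0.00 (95% interval -0.20 to 0.20) and 0.42 (95% interval 0.05 to 0.80) and were not called. Of the kinases downstream of p38, Mapkapk2 and Mapkapk5 differed by -0.16 and 0.26, also not called.

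Of 14 tested dual-specificity phosphatase probe sets 1 rose and 2 fell. Dusp6 encodes the cytoplasmic ERK phosphatase, whose gene is itself switched on by ERK signalling. Signals of its probe set 1377064_at were 6.33, 6.70, 5.84, 6.54, 7.27 and 5.90 on control arrays 1 to 6 and 7.19, 7.68, 6.83, 7.54 and 7.80 on ketogenic arrays 1 to 5. The spread was wide on both diets, and control array 5, at 7.27, lay above ketogenic arrays 1 and 3. This probe set rose by 0.98 on the log2 scale (SE 0.23, limma adjusted p = 0.0155), 1.97-fold, the largest fold among the called members. The other 2 Dusp6 probe sets were at 0.24 (95% interval -0.33 to 0.81) and, for the brightest, 0.10 (95% interval -0.13 to 0.33), so that 1 of 3 passed the test.

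Dusp3 encodes a small phosphatase that acts on ERK and JNK. Signals of its probe set 1377300_at were 7.62, 8.13, 8.16, 7.97, 7.94 and 8.14 on control arrays 1 to 6 and 7.49, 7.65, 7.86, 7.44 and 7.40 on ketogenic arrays 1 to 5. Control array 1, at 7.62, lay among the ketogenic arrays. This probe set fell by 0.43 on the log2 scale (SE 0.11, limma adjusted p = 0.0206), and was at -0.39, adjusted p = 0.0587 without ketogenic replicate 4. The brighter Dusp3 probe set was at -0.14 (95% interval -0.27 to -0.003). Dusp12, an atypical phosphatase of this family, had controls from 6.42 to 6.82 (median 6.71) and ketogenic arrays from 6.13 to 6.68 (median 6.22). Its ketogenic array 3 lay among the controls. Dusp12 fell by 0.35 on the log2 scale (SE 0.12, limma adjusted p = 0.0492), and was called in 2 of 11 fits with 1 array left out, those without control replicate 2 and without ketogenic replicate 3 (differences -0.44 to -0.30). With the covariates Dusp12 was at -0.21 (adjusted p = 0.926). The other 11 tested Dusp probe sets, Dusp1, Dusp4 and Dusp5 among them, differed by -0.33 to 0.42.

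Repeat probe sets of a gene allow a comparison within the members. Of 9 genes with at least 2 tested probe sets, 8 had 1 sign in all of them, the exception being Map3k1 at 0.23 and -0.01. In 5 of these genes at least 1 probe set was called, and in 1, Mapk8ip1, all were. For Prkcb, Prkci, Dusp3 and Dusp6 the call rested on 1 probe set, which was not the one with the highest mean signal.

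**Figure D3:**
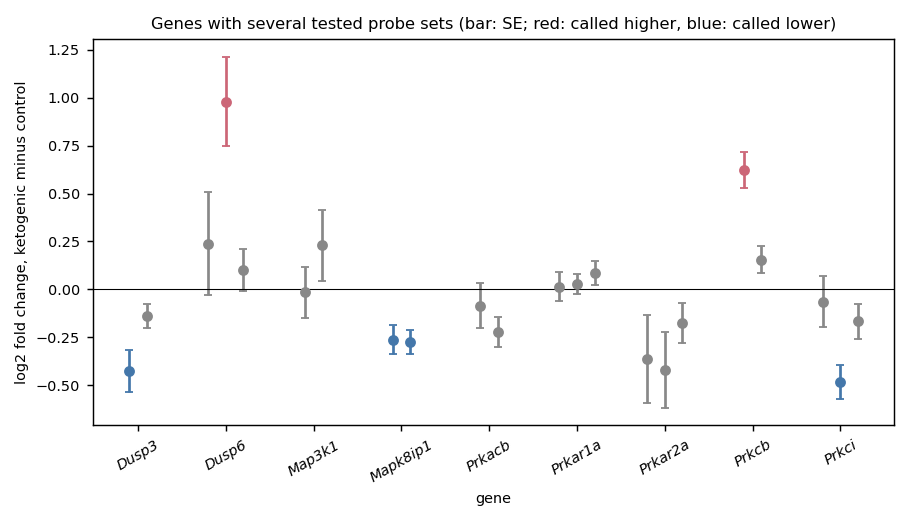
Log2 fold change (ketogenic minus control) of each tested probe set for the 9 genes with several, ordered from dim to bright within a gene by their ketogenic mean, with SE bars, red for called higher, blue for called lower and grey for not called. Signs match within 8 genes, while sizes differ, most for Dusp6, from 0.10 to 0.98.

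The arrays of the ketogenic group did not contribute evenly to these calls. In 9 of the 15 called probe sets ketogenic array 3 was the ketogenic array nearest the control mean. Its difference from the control mean was at a median of 0.51 of the group difference over these probe sets, against 1.01 to 1.28 for the other ketogenic arrays. This array also lay between the diets on principal component 1 over all tested probe sets (-2.82), so its position is not particular to these members. Without it all 15 stayed called and 10 more members were called, among them Dusp19 (-0.44), Map3k11 (-0.41), Map2k6 (0.38), Dusp1 (0.48) and the second Prkcb probe set (0.20). The share called was then 35.7% of members, against 21.4% with all arrays, and 26.6% of all tested probe sets, against 16.5%.

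**Figure D4:**
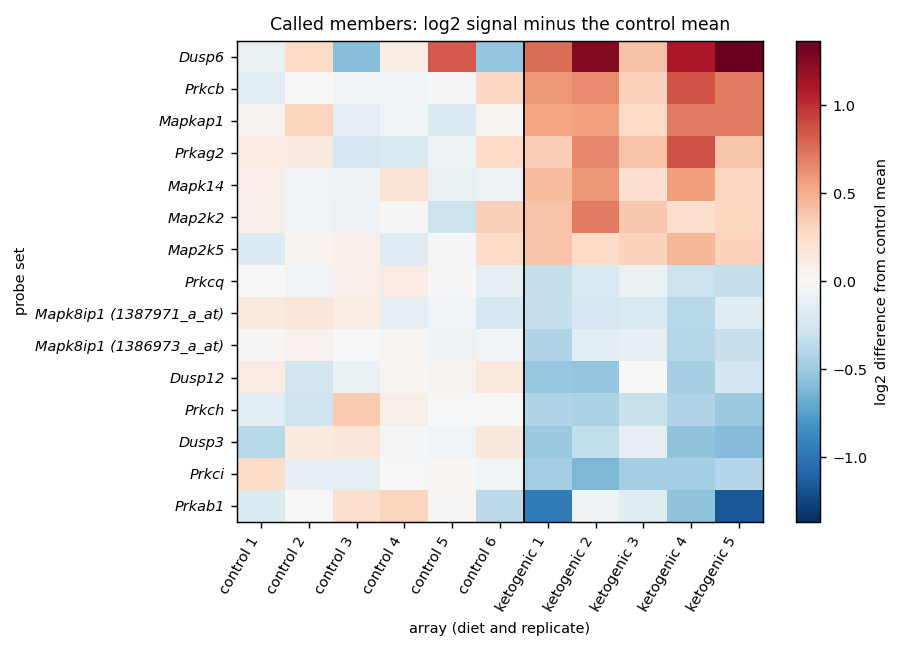
Log2 signal minus the control mean for the 15 called probe sets (vertical, ordered by difference) on each of the 11 arrays (horizontal), red for above and blue for below the control mean. Ketogenic array 3 is nearest the control mean of the ketogenic arrays in 9 of 15 lines, at a median of 0.51 of the group difference.

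The genes around these kinases were taken from 6 lists, in which a gene was represented by its brightest tested probe set. Of 146 measured genes 9 rose and 10 fell, or 13.0%, against 16.9% of the 8397 genes tested in all (8.85% higher and 8.04% lower). The median difference was 0.01.

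Upstream of PKA, 1 of 20 measured G protein, adenylyl cyclase and phosphodiesterase genes was called. It was Gnai2, an inhibitory G protein subunit, which fell by 0.31 (SE 0.09, adjusted p = 0.0345). Of 22 PKA inhibitors, anchors and targets 2 rose and 0 fell. Crebbp, the coactivator that binds phosphorylated CREB, rose by 0.88 (SE 0.14, adjusted p = 0.00282) from 6.35 ± 0.27 (SD, n = 6) to 7.23 ± 0.26 (SD, n = 5), with no overlap between the diets. Creb1, the gene of CREB, a transcription factor that PKA phosphorylates, rose by 0.53 (SE 0.16, adjusted p = 0.0376).

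Around PKC, 2 of 27 measured genes rose and 2 fell. Dgka and Dgkz, kinases that remove the PKC activator diacylglycerol, rose by 0.49 (SE 0.11, adjusted p = 0.0134) and 0.24 (SE 0.07, adjusted p = 0.0278). The PKC substrate genes Marcks and Marcksl1 fell by 0.33 (SE 0.09, adjusted p = 0.0219) and 0.29 (SE 0.09, adjusted p = 0.047).

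Of 25 measured Ras and Raf inputs to ERK 0 rose and 3 fell. The small GTPase genes Rap1a and Rras fell by 0.50 (SE 0.11, adjusted p = 0.0102) and 0.44 (SE 0.13, adjusted p = 0.0315), and Rap1gap, whose product switches Rap1 off, fell by 0.35 (SE 0.09, adjusted p = 0.0234). Among 33 MAP kinase effectors, MAP4 kinases and other MAP kinase phosphatases 5 rose and 2 fell. Mapt, the gene of tau, rose by 0.36 (SE 0.07, adjusted p = 0.00716), Map4k3 by 0.31 (SE 0.07, adjusted p = 0.00972) and Atf2, a transcription factor that p38 and JNK phosphorylate, by 0.72 (SE 0.16, adjusted p = 0.0102). Ptpn5, the neuronal phosphatase STEP, which acts on ERK and p38, rose by 0.32 (SE 0.08, adjusted p = 0.0195).

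Of 31 listed transcripts that ERK and cyclic AMP signalling induce, 19 were measured, and Fos, Fosb, Npas4 and Atf3 had no tested probe set. Of the 19, 0 rose and 2 fell. They were the early growth response genes Egr1, which fell by 0.26 (SE 0.08, adjusted p = 0.0383), and Egr3, which fell by 0.58 (SE 0.18, adjusted p = 0.0442). Bdnf, of the same list, differed by 0.04 (adjusted p = 0.819, limma). Dusp6 is also a transcript of this kind, and its probe sets are described above.

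**Figure D5:**
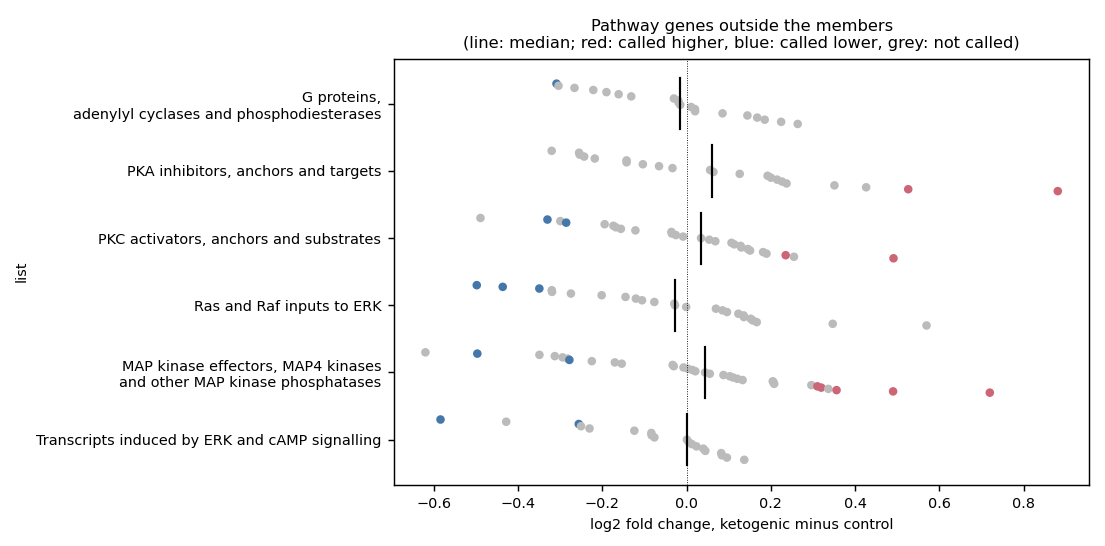
Log2 fold change (ketogenic minus control) of the 146 measured pathway genes outside the members in 6 lists, each point a gene, with a black line at the list median, red for called higher, blue for called lower and grey for not called. List medians lie between -0.03 and 0.06, and the called points fall on both sides of 0.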

How the data were processed

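Total RNA from rat hippocampus was measured on 11 1-colour arrays, 6 from the control diet and 5 from the ketogenic diet, grouped by sample title. The authors deposited intensities on a linear scale for 15923 probe sets; how the authors made them from scanner images is not given in the sources used here. Their mean after trimming 2% at each end was 150.023 to 150.028 on every array, as a global scaling leaves it. Median intensities were 79.9 to 94.2, and the number of arrays limits the precision.

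Because log2 medians spanned 0.24, above a limit of 0.1, intensities were quantile normalized. Values under the 5th percentile (a signal of 5.02) were set to it, log2 was taken, 57 control probe sets and the 25% with the lowest means (log2 mean up to 5.17) were left out, and 11899 went into limma 3.58.1 under R 4.3.3 (lmFit and then eBayes with trend, two-sided, Benjamini-Hochberg over all). All 84 members were matched to the RefSeq gene table by gene identifier, with no symbol changed. Every called member is named with its test. The brightest tested probe set of each PKA subunit, PKC isoform and MAP kinase is also given, with up to 4 called genes per pathway list. Values in every sample are printed for the 12 called members with the smallest p and for called PKC genes. Other members named were chosen after their values were seen. Members and lists were chosen with earlier results of these data known. When this comparison was simulated on 11899 probe sets, 61 of 100 changes of 0.5 and 94 of 100 changes of 1 were called, with 13 false among 168 calls. The simulated noise was independent between probe sets and held no difference between whole arrays, so these rates need not hold for the measured arrays. Alternatives were other scalings, floors and filters, other variance models, array weights, a replicate block, covariates, a threshold of 0.1 and leaving out each array.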

Additional observations from a re-analysis of the deposited data

Results flagged for a closer look

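In 4 of 76 groups of values tested (34 named probe sets and 4 measures of whole arrays, in either diet), 1 array lay far from the rest of its group. Chance gives about 1 in 20 groups, or 3.8. For Prkcb (1368240_a_at) control array 6 was at 8.74, above the next control at 8.46. For Mapk11 control array 4 was at 5.58, the next being 5.31. For Mapk6 ketogenic array 3 was at 7.77, the next being 7.42. For Prkacb (1371835_at) control array 1 was at 9.81, below the next at 10.18, and the difference was called lower without it (-0.29, adjusted p = 0.0101 in limma).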

How the results depend on the processing

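With 15 members called, 7 higher and 8 lower, the counts with both 3 prime to 5 prime ratios as covariates were 0, 0 and 0, and 6 of all probe sets against 1962. Those ratios nearly follow the diet, so this fit hardly separates diet from ratio. The median difference of the members was then 0.0128 against -0.0337, Map2k2 changed sign to -0.00953 (adjusted p = 0.997), and the other 14 called probe sets kept their sign. With array weights 11 members were higher and 3136 of all probe sets were called, and at a threshold of 0.1 the latter count was 3070. With no filter on dim probe sets, and with eBayes without trend, 5 members were lower. On the values as deposited the median was -0.0803, with -0.0599 over all probe sets, and 8 members were higher and 11 lower. Of the calls over all probe sets 38.3% were higher on the values as deposited, against 52.3%. Of the member calls 46.7% were higher, against 58.3% with no filter and with eBayes without trend. With 1 array left out, 8 to 25 members were called, 6 to 12 higher and 2 to 13 lower, 797 to 3163 of all probe sets were called, and the median was -0.0528 to -0.0109.

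No label says that replicate numbers pair arrays, and same-numbered arrays deviated together at correlations of 0.01 to 0.08. With the replicate number as a block, to which control replicate 6 adds nothing, 15 members were called, of which 13 were called without it, and Prkcq and Dusp12 were not (adjusted p = 0.0603 and 0.0945), while Dusp19 (-0.36, adjusted p = 0.0452) and the second Prkcb probe set (0.19, adjusted p = 0.0366) were. Of 811 comparisons of named probe sets with an alternative, 732 kept their side of the threshold, 67 lost a call, 11 gained one and 1 reversed (Map2k2, above). Only the 15 called among the 34 named probe sets had a call to lose, so 732 of 811 does not measure the stability of the calls. Of the 67 losses, 39 came with 1 array left out and 14 with the 3 prime to 5 prime covariates. Among the 34 named probe sets 12 changed sign in some alternative, 1 of them a called one. Probe sets were not set against each other in level, and a batch, of which the labels give no record, could not be fitted.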

Other observations

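Some members that did not pass the test were called under several of 24 alternatives. Dusp19, an atypical phosphatase, was at -0.33 (adjusted p = 0.0517, limma) and was called lower in 8 of them. Map3k11, which encodes the JNK-activating kinase MLK3, was at -0.34 (adjusted p = 0.0537) and was called lower in 6. Map2k6, an activator of p38, was at 0.28 (adjusted p = 0.124) and was called higher in 2, with array weights and without ketogenic replicate 3.

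Among the 14 members too dim to be tested, Prkaa2 had log2 signals of 2.532 to 2.996 on control arrays. On ketogenic arrays 1 to 5 they were 4.01, 6.62, 2.58, 3.54 and 2.97. Dusp11 was at the floor of 2.33 on all 6 control arrays and at 2.33, 3.20, 2.38, 4.57 and 2.89 on ketogenic arrays 1 to 5. These values have no test. Other genes with no tested probe set were Dusp9, Dusp23, Map3k8, Mapk7, Mapk13, Mapk8ip2 and Mapkapk3, whose signals lay between 2.33 and 5.62.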
